A study of Mus musculus with 4 samples.

Results

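Sperm thioredoxin and glutathione redox genes were followed as a set of 8 named genes, Txndc2, Txndc8, Txnrd3, Gpx4, Prdx4, Gsta2, Gstm5 and Osgin1, chosen by symbol from the 26068 named entries of the deposited table. All 8 were listed, each in a single entry, and all 8 passed the filter on low values, among 13414 genes tested. Whole testes came from 24-day-old male B6D2F1 mice, with 2 libraries from wild type animals and 2 from mice homozygous for an Adad2 knockout. The sources used here do not say how the allele was made or whether each library came from its own animal, so every p-value rests on the spread between these libraries alone, and that spread may be technical. Estimated depth was 29400000 to 36900000 reads per library. ADAD2 is an RNA-binding protein of male germ cells, and the title of the series ties it to piRNA production and to spermiogenesis, the remodelling of round spermatids into sperm. Adad2 itself was at 25.2 and 22.2 RPKM in wild type and 13.2 and 9.86 RPKM in the knockout, where RPKM is reads per kilobase of gene scaled to library depth. It was 2.07-fold lower in the knockout (limma adjusted p = 0.00604; 0.143 without wild type replicate 1 and 0.0838 without wild type replicate 2), so reads of the targeted gene were still counted in both knockout libraries.

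Thioredoxins and glutathione are the main thiol systems that reduce disulfide bonds and remove peroxides. Thioredoxins are kept reduced by thioredoxin reductases, peroxiredoxins and glutathione peroxidases destroy peroxides, and glutathione transferases couple glutathione to reactive compounds. Male germ cells carry their own versions of several of these proteins, and in maturing sperm disulfide bonds cross-link the protamines, the outer dense fibres, the fibrous sheath and the mitochondrial capsule.

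The promoters of the 3 genes called lower in the knockout are shown with that of Gstm5, the most abundant member. Gstm5 did not pass the test. Each window holds 300 bases, from 250 before to 50 after an annotated start, from RefSeq on GRCm38.p6, a later build than the mm9 coordinates of the table. Capitals mark matches, on either strand, to the cAMP response element TGACGTCA, its half-site TGACG, the TATA box TATAAA or the antioxidant response element core TGACNNNGC, where the half-site lies inside the full element and can overlap the core.
Txndc2, chr17:65642155-65642454, minus strand: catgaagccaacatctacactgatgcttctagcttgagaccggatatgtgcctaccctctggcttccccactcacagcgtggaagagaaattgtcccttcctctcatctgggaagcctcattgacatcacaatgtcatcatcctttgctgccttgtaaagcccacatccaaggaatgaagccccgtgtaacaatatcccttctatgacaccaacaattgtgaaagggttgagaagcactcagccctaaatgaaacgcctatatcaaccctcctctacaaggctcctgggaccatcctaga
Txndc8, chr4:58009077-58009376, minus strand: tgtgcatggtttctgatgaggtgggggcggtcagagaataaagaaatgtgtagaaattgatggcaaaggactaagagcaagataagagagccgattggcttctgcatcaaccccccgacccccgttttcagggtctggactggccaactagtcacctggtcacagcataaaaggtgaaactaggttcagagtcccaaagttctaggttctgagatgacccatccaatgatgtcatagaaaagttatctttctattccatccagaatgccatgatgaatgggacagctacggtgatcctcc
Osgin1, chr8:119436897-119437196, plus strand: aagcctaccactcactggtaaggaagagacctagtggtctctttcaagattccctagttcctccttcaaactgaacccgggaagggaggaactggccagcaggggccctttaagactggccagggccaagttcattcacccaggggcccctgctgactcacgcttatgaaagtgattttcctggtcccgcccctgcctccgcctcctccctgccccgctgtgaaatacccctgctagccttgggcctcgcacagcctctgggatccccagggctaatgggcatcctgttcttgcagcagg
Gstm5, chr3:107895604-107895903, plus strand: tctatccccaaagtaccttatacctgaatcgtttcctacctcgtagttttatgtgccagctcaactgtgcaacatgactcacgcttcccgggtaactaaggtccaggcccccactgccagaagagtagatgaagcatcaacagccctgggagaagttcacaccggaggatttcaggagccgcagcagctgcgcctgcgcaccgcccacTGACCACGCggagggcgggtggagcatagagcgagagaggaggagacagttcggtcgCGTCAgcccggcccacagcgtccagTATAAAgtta

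None of these letters was found in the windows of Txndc2, Txndc8 and Osgin1 printed here. The second annotated start of Txndc2 had an antioxidant core, TGACCTAGC, from base -203. The Gstm5 window held the core TGACCACGC from base -42 and a half-site on the opposite strand from base 16. It also held the TATA letters from base 41, which lies after the start. Bases are counted from the start in the direction of the gene. Of 32851 promoter windows of this length, 1.79% held the full cAMP element, 20.8% its half-site, 13.6% the TATA letters and 12.4% the antioxidant core. Over all 8 genes, which have 12 windows, 5 windows held no match. Among these was the window of Txnrd3, whose log2 change was -0.0017, so a lack of matches was not particular to the genes called lower. A link between these letters and the changes was not tested.

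Of the 8 genes, 3 were lower in the knockout past the threshold (Txndc2, Txndc8 and Osgin1) and 0 were higher, by limma with an adjusted p under 0.05 over all genes tested. Across all genes tested, 7.15% were called lower and 1.22% higher, or 8.36% in either direction. At an unadjusted p under 0.05, 5 of the 8 were lower and 0 higher, beside 11.3% lower and 15.6% higher over all genes tested. The median change of the 8 was -0.35 on the log2 scale, beside 0.14 over all genes tested. Both knockout libraries lay below both wild type libraries in 5 members (16.8% of all genes tested) and above them in 1 (46.4% of all genes tested), and the groups overlapped in 2. Without wild type replicate 1 limma called 0 of all genes tested (2357 had an unadjusted p under 0.05), so each call named here, Mlycd and the marker genes included, is lost there.

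**Figure D1:**
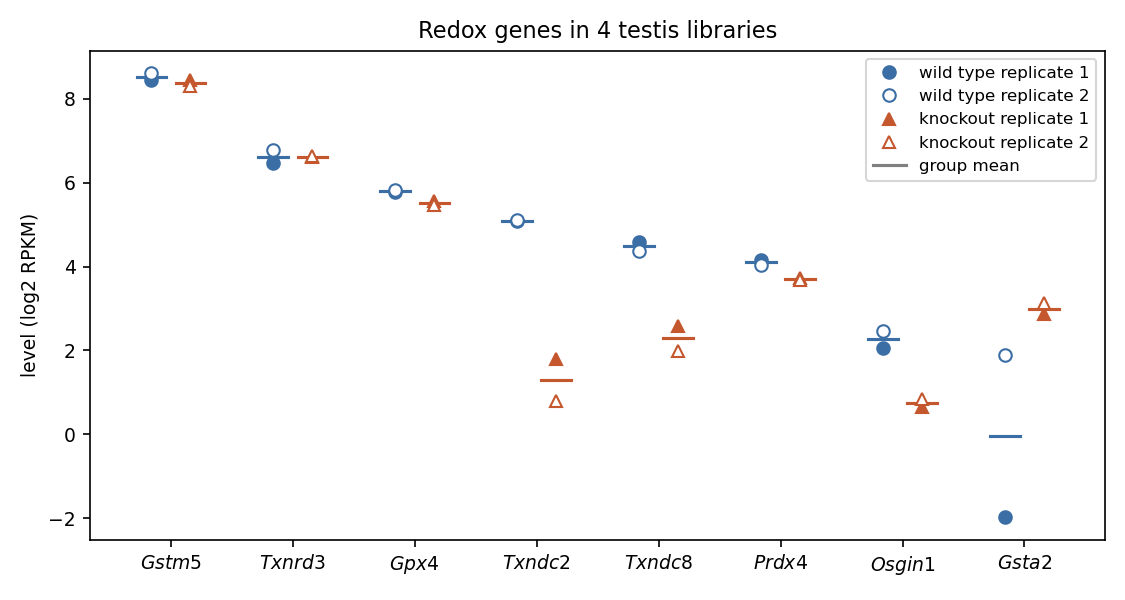
Level of each gene in log2 RPKM (y axis) in the 4 libraries, with genes ordered by their wild type mean; circles are wild type, triangles knockout, filled symbols replicate 1, open symbols replicate 2, and lines group means of 2 libraries. Txndc2, Txndc8 and Osgin1 are separated between the groups, Gstm5 and Txnrd3 are not, and Gsta2 is at -1.98 in wild type replicate 1 and 1.89 in wild type replicate 2.

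The members spanned a wide range of levels. On the RPKM scale the wild type order was Gstm5, Txnrd3, Gpx4, Txndc2, Txndc8, Prdx4, Osgin1 and Gsta2, and no neighbours in that order overlapped between their 2 libraries. In the knockout the order was Gstm5, Txnrd3, Gpx4, Prdx4, Gsta2, Txndc8, Txndc2 and Osgin1. There Txndc2 and Osgin1 overlapped, so their places cannot be told apart. Txndc2 stood at the 91.8th percentile of all genes tested by its wild type mean and at the 21.8th by its knockout mean, while Gstm5 stood at the 99.9th and 99.8th.

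Txndc2 encodes a thioredoxin of the sperm tail that is found at the fibrous sheath. It lies on the minus strand of chromosome 17 from 65986845 to 65991544 in mm9 (ENSMUSG00000050612). Its level was 33.9 and 34.4 RPKM in wild type replicates 1 and 2 and 3.47 and 1.73 RPKM in knockout replicates 1 and 2. Both knockout libraries were far below the wild type pair, and the knockout libraries differed from each other by more than the wild type libraries did. On the log2 scale the groups were at 5.09 ± 0.01 and 1.29 ± 0.71 (SD, n = 2), so the knockout kept 7.18% of the wild type level, 13.9-fold less. The log2 change was -3.80 (SE 0.36, 95% confidence interval -4.81 to -2.79; limma adjusted p = 0.01). The values corresponded to 1949, 2409, 217 and 97 reads. Without wild type replicate 1 the change was -3.81 and missed the threshold (limma adjusted p = 0.0619, the largest with any library left out). In whole testis, fewer cells of a type and less RNA per cell cannot be told apart.

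Txndc8 encodes another spermatid thioredoxin, linked to the Golgi apparatus and the forming acrosome. The gene is on the minus strand of chromosome 4, from 57996899 to 58021996 (ENSMUSG00000038709). Its level was 24.1 and 20.7 RPKM in wild type and 5.99 and 3.97 RPKM in the knockout, from 498, 522, 135 and 80 reads. The groups did not overlap, and knockout replicate 2 was again the lower of its pair. The group values were 4.48 ± 0.16 and 2.29 ± 0.42 log2 RPKM (SD, n = 2), a 4.57-fold lower level in the knockout (log2 change -2.19, SE 0.21, limma adjusted p = 0.0024). Without wild type replicate 1 the change of Txndc8 was -2.08 and missed the threshold (limma adjusted p = 0.0718, the largest with any library left out). Beside these thioredoxins, 9 of 10 spermatid marker genes fell (7.15% of all genes tested), 0 rose, and their median change was -3.05. Their summed level was 1024 and 957 RPKM in wild type and 130.5 and 75.8 RPKM in the knockout, lowest in the same library as Txndc2 and Txndc8. The part of the spermatid share in the lower sperm thioredoxins was not tested.

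Txnrd3 is the testis thioredoxin-glutathione reductase, which can reduce both thioredoxin and glutathione. The gene is on the plus strand of chromosome 6 between 89593982 and 89625523 (ENSMUSG00000000811). Its level was 88.7 and 109 RPKM in wild type and 97.2 and 99.3 RPKM in the knockout, so that both knockout libraries lay between the wild type libraries. The log2 change was -0.0017, with a 95% confidence interval from -0.30 to 0.29 (SE 0.13, limma adjusted p = 0.993). In each library the gap between a sperm thioredoxin and this reductase was also read on the log2 RPKM scale. Txndc2 was below Txnrd3 in all 4 libraries, with differences of -1.39 and -1.67 in wild type and -4.81 and -5.84 in the knockout. Txndc8 minus Txnrd3 was -1.88 and -2.40 in wild type and -4.02 and -4.64 in the knockout. Both gaps were wider in the knockout in 2 of 2 libraries (exact two-sided permutation p = 0.333 for each, the smallest that 2 libraries against 2 can give).

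Gpx4 encodes a selenium-containing glutathione peroxidase that protects membrane lipids and, in sperm, becomes a structural protein of the mitochondrial capsule. Its plus-strand locus on chromosome 10 runs from 79509911 to 79519184 (ENSMUSG00000075706). The gene has mitochondrial, cytosolic and nuclear forms, which the table sums into a single value. Gpx4 was at 54.7 and 57.1 RPKM in wild type and 47.2 and 43.9 RPKM in the knockout. The groups did not overlap, but the difference was small and missed the threshold: 5.80 ± 0.04 and 5.51 ± 0.07 log2 RPKM (SD, n = 2), a log2 change of -0.30 with a 95% confidence interval of -0.54 to -0.05 (limma adjusted p = 0.131). After quantile normalization it was past the threshold (limma adjusted p = 0.046, the smallest over the alternatives, which reached 0.458).

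Prdx4, the peroxiredoxin of the endoplasmic reticulum, is on the minus strand of chromosome X, from 151758461 to 151775297 (ENSMUSG00000025289). Its level was 17.9 and 16.5 RPKM in wild type and 13.2 and 12.8 RPKM in the knockout. Again the groups did not overlap. The log2 change was -0.41 (95% confidence interval -0.64 to -0.17) and lay at the threshold (limma adjusted p = 0.0502). It was past the threshold with equal library medians (adjusted p = 0.0382), with log2(RPKM + 1) (0.0461), after quantile normalization (0.0437) and with genes filtered at a mean log2 RPKM of 2 (0.0367), and short of it without a filter (0.112), without limma's trend and robust options (0.107) and with any library left out (0.0562 to 0.24).

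**Figure D2:**
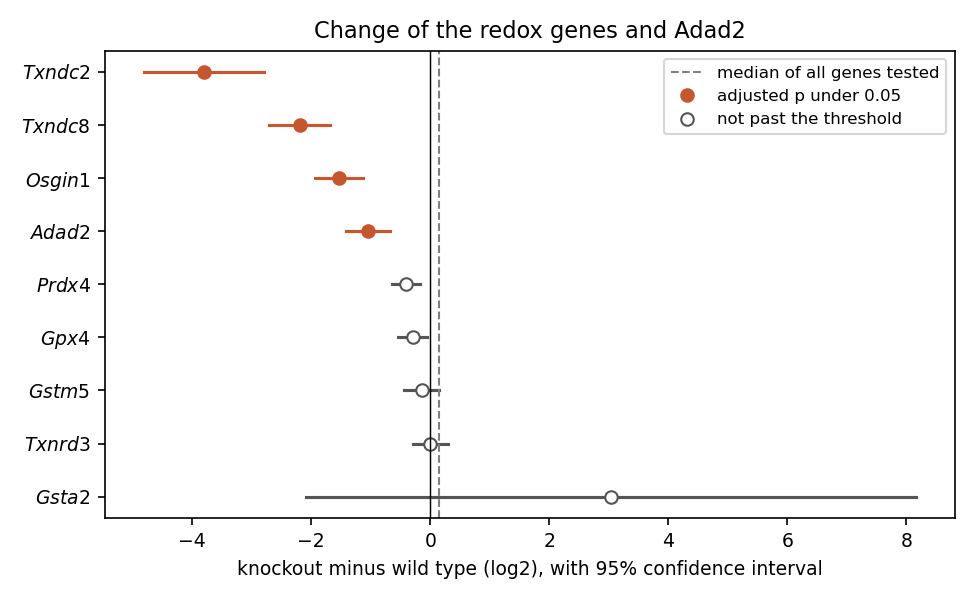
Change of each gene (x axis, knockout minus wild type on the log2 scale) with its 95% confidence interval from limma; filled points passed an adjusted p under 0.05, and the dashed line is the median of 0.14 over all genes tested. Txndc2, Txndc8, Osgin1 and Adad2 lie to the left of 0, and the interval of Gsta2 runs from -2.08 to 8.16.

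Gstm5, a mu-class glutathione transferase, is on the plus strand of chromosome 3 between 107698739 and 107701604 (ENSMUSG00000004032). Its level was 349 and 392 RPKM in wild type and 351 and 318 RPKM in the knockout, and the groups overlapped. The log2 change was -0.15 with a 95% confidence interval from -0.43 to 0.14 (limma adjusted p = 0.442), although quantile normalization, which moved it to -0.23, put it past the threshold (limma adjusted p = 0.0417, the smallest over the alternatives, which reached 0.892). It shares 393 bases with 4933431E20Rik on the other strand, a gene that stood at 11.3 to 13.8 RPKM, and without stated use of strand the reads of this stretch cannot be assigned.

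Gsta2, an alpha-class glutathione transferase, was the member whose knockout libraries were both above wild type. It is on the minus strand of chromosome 9, from 78178825 to 78203595 (ENSMUSG00000057933). Its level was 0.253 and 3.71 RPKM in wild type and 7.24 and 8.77 RPKM in the knockout. Wild type replicate 1 stood apart, with 9 reads (exact Poisson 95% interval 4.12 to 17.1, counting error only) where the other libraries had 161, 281 and 304. The log2 change of 3.04 had an SE of 1.60 and a 95% confidence interval from -2.08 to 8.16 (limma adjusted p = 0.315). Without wild type replicate 1 it was 1.11 (limma adjusted p = 0.08), and without wild type replicate 2 it was 4.98 (limma adjusted p = 0.0426). The size of the change thus differed with the wild type library left out. The gap of 3.87 between the wild type libraries was the second widest among 13414 genes tested, after that of Zfp125 (4.24), where the median gap was 0.14. That rank holds only among genes past the filter, which Gsta2 passed through its knockout values (wild type mean -0.05 log2 RPKM). Zfp125 was named after its values were seen.

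The same step was seen in the relatives of Gsta2 beside it on chromosome 9, which were looked at after the values of Gsta2 were seen. Gsta1 had 1 read in wild type replicate 1, 18 in wild type replicate 2, and 46 and 34 in the knockout. Gm10639 had 1, 32, 57 and 53 reads. Gm3776 was at 0.0346 and 0.22 RPKM in wild type and 0.423 and 0.513 RPKM in the knockout. These 3 genes were under the filter on low values, so the rank of gaps leaves them out. The log2 gaps between their wild type libraries were 3.88 for Gsta1, 4.71 for Gm10639 and 2.67 for Gm3776. Without a filter none of the 3 genes was past the threshold (limma adjusted p = 0.318 for Gsta1, 0.382 for Gm10639 and 0.311 for Gm3776). They are close copies of Gsta2, so reads may have been shared between them and they do not count as separate evidence. Gsta4, at the other end of the cluster, was at 44.8 and 45.1 RPKM in wild type and 51.8 and 53.2 RPKM in the knockout (limma adjusted p = 0.198), with a gap of 0.01 on the log2 scale between the wild type libraries. Summed Leydig cell markers were 287 and 429 RPKM in wild type and 340 and 487 RPKM in the knockout, also lowest in wild type replicate 1. Not every Leydig gene followed this sum. Between the wild type libraries, Cyp17a1 went from 3.85 in replicate 1 to 6.02 in replicate 2 on the log2 scale. Hsd3b1 differed little, at 27.9 RPKM in replicate 1 against 29.0 RPKM in replicate 2. Nr5a1 went the other way, from 10.1 RPKM in replicate 1 to 9.38 RPKM in replicate 2. Summed immune and red blood cell markers were 100.1 and 60.7 RPKM in wild type and 51.5 and 58.5 RPKM in the knockout, highest in wild type replicate 1. Within that sum, the red blood cell genes Hbb-b1 and Hba-a2 were at 30.5 and 26.4 RPKM in wild type replicate 1. In wild type replicate 2 they were at 14.7 and 11.9 RPKM. The immune genes tested had log2 changes of 0.07 to 0.11 between the groups. The part of Leydig or blood cells in the Gsta2 values was not tested.

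**Figure D3:**
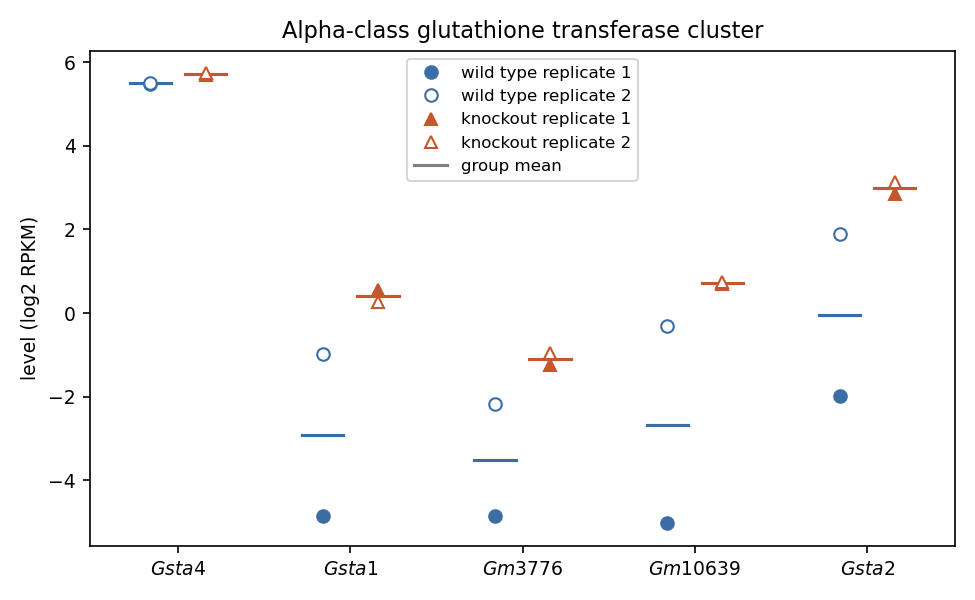
Level in log2 RPKM (y axis) of Gsta4, Gsta1, Gm3776, Gm10639 and Gsta2, in their order along chromosome 9; circles are wild type, triangles knockout, filled symbols replicate 1, open symbols replicate 2, and lines group means. Wild type replicate 1 is lowest in the last 4 genes, where Gsta1 and Gm10639 had 1 read, while Gsta4 lies at 5.49 to 5.73 in all libraries.

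Osgin1, an oxidative stress response gene whose product restrains cell growth, fell. Its level was 4.19 and 5.55 RPKM in wild type and 1.57 and 1.78 RPKM in the knockout, from 339, 548, 138 and 140 reads. The groups did not overlap. They stood at 2.27 ± 0.29 and 0.74 ± 0.13 log2 RPKM (SD, n = 2), a 2.89-fold lower level in the knockout (log2 change -1.53, SE 0.18, limma adjusted p = 0.00131). Osgin1 missed the threshold without wild type replicate 1 (limma adjusted p = 0.0581) and without wild type replicate 2 (0.0571), the largest 2 values with a library left out.

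Osgin1 also lies near the targeted gene, with other genes between them. It is on the plus strand of chromosome 8 between 121958024 and 121970156 (ENSMUSG00000074063), and its end is 166490 bases before the start of Adad2 on the same strand. The values of the genes around it were read after that of Osgin1 was known. Mlycd, the malonyl-CoA decarboxylase gene on the far side of Osgin1, fell from 3.86 and 4.59 RPKM to 2.38 and 2.36 RPKM (log2 change -0.83, limma adjusted p = 0.00899). Slc38a8, between Osgin1 and Adad2, had 8 and 8 reads in wild type and 0 and 0 in the knockout, and was under the filter and not tested. The other genes between them did not pass the threshold: the log2 change was 0.21 for Necab2, 0.28 for Mbtps1, 0.20 for Hsdl1, -0.03 for Lrrc50 and 0.21 for Taf1c, and their limma adjusted p ran from 0.139 for Mbtps1 to 0.885 for Lrrc50. Kcng4, on the other side of Adad2, had a log2 change of 0.27 (limma adjusted p = 0.274). Position near the targeted gene, the share of spermatids and a place among the redox genes cannot be told apart for Osgin1 from these libraries. None of them was tested.

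**Figure D4:**
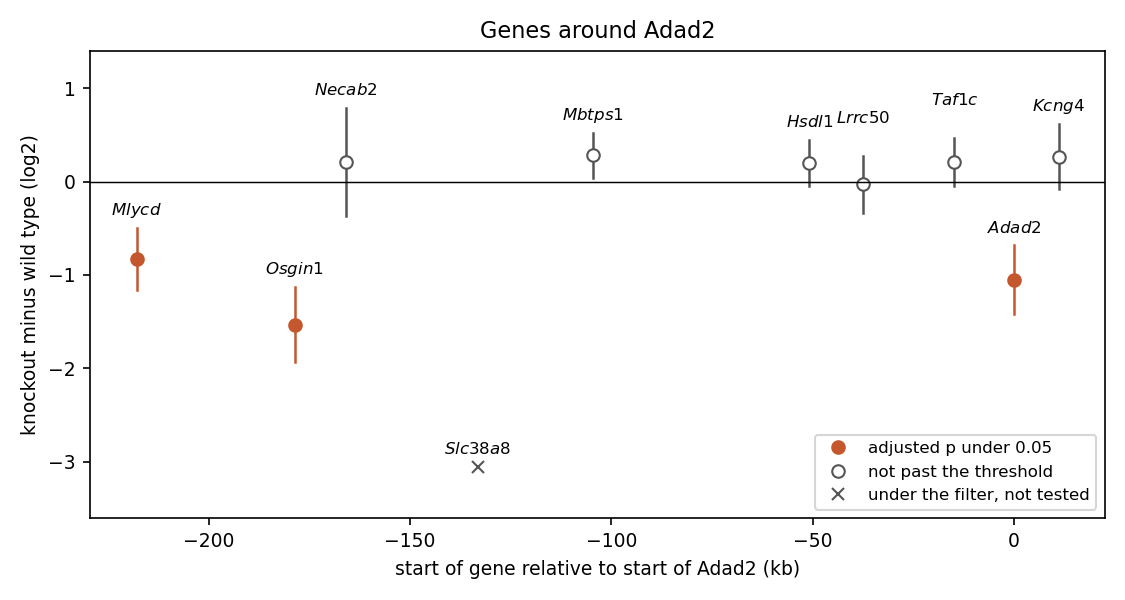
Change on the log2 scale (y axis, with 95% confidence intervals) of the genes from Mlycd to Kcng4 by the distance of their listed start, the lower coordinate on either strand, from that of Adad2 in kb (x axis); filled points passed an adjusted p under 0.05 and the cross marks Slc38a8, which was not tested and whose plotted value rests on the value the table gives to genes without reads. Mlycd, Osgin1 and Adad2 are lower in the knockout, and the genes tested between Osgin1 and Adad2 lie from -0.03 to 0.28.

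The wider thioredoxin and glutathione systems were read from lists of their other genes. Over 7 lists, 78 genes were tested, of which 3 fell (Srxn1, Gpx6 and Glrx2) and 0 rose at an adjusted p under 0.05, a share of 3.85% lower beside 7.15% lower and 1.22% higher over all genes tested. At an unadjusted p under 0.05, 4 were lower (5.13%) and 18 higher (23.1%), beside 11.3% and 15.6% over all genes tested. No test was made of these shares, and the counts by list are read against the same shares. Their median change was 0.20, beside 0.14 over all genes tested.

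Of 11 thioredoxins and reductases tested, 0 were called in either direction, with 0 at an unadjusted p under 0.05 and a median of 0.18. Nme8, a further sperm thioredoxin, had the smallest p (limma adjusted p = 0.224). It was at 24.6 and 24.8 RPKM in wild type and 23.2 and 17.8 RPKM in the knockout. Its log2 change of -0.28 became -0.47 without knockout replicate 1 and -0.09 without knockout replicate 2. Of 10 peroxiredoxin and methionine sulfoxide repair genes, 1 was lower and 4 higher at an unadjusted p under 0.05, with a median of 0.25. Past the adjusted threshold, 1 gene fell and 0 rose. That gene was Srxn1, sulfiredoxin, which restores overoxidised peroxiredoxins. Srxn1, with a knockout mean of -0.27 log2 RPKM, passed the filter on low values through its wild type level. It went from 2.55 and 2.12 RPKM to 0.646 and 1.07 RPKM, a 2.79-fold fall (limma adjusted p = 0.0123; 0.0653 without a filter, 0.228 without wild type replicate 1 and 0.145 without wild type replicate 2).

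Of 5 other glutathione peroxidases tested, 2 were lower and 1 higher at an unadjusted p under 0.05, with a median of 0.23. Past the adjusted threshold, 1 gene fell and 0 rose. Gpx6 went from 3.76 and 3.18 RPKM to 1.62 and 0.985 RPKM, a 2.74-fold fall (limma adjusted p = 0.0126; 0.0669 without a filter, 0.209 without wild type replicate 1 and 0.128 without wild type replicate 2). Of 10 genes of glutathione synthesis and recycling, 1 was lower and 3 higher at an unadjusted p under 0.05, with a median of 0.21. Past the adjusted threshold, 1 gene fell and 0 rose. It was Glrx2, the mitochondrial glutaredoxin, which went from 2.94 and 2.79 RPKM to 1.60 and 1.79 RPKM, a 1.70-fold fall (limma adjusted p = 0.0205; 0.0594 without a filter, 0.216 without wild type replicate 1 and 0.154 without wild type replicate 2).

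Of 20 glutathione transferases, 0 were called, with 7 higher and 0 lower at an unadjusted p under 0.05 (15.6% higher over all genes tested) and a median of 0.22. Gstp1, of the pi class, had the smallest p, at 4.30 and 4.14 RPKM in wild type and 5.64 and 5.50 RPKM in the knockout (limma adjusted p = 0.0782). Of 11 genes of the oxidative stress response and superoxide removal, 0 were called, with 2 higher at an unadjusted p under 0.05 and a median of 0.20. Sod3, the extracellular superoxide dismutase, was at 9.87 and 10.4 RPKM in wild type and 12.3 RPKM in both knockout libraries (limma adjusted p = 0.133). Of 11 genes of selenoprotein synthesis and selenium supply, on which the making of Gpx4 and Txnrd3 depends, 0 were called, with 1 higher at an unadjusted p under 0.05 and a median of 0.17. Sepsecs, which makes selenocysteine on its transfer RNA, was at 5.65 and 6.13 RPKM in wild type and 7.26 and 6.94 RPKM in the knockout (limma adjusted p = 0.168).

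**Figure D5:**
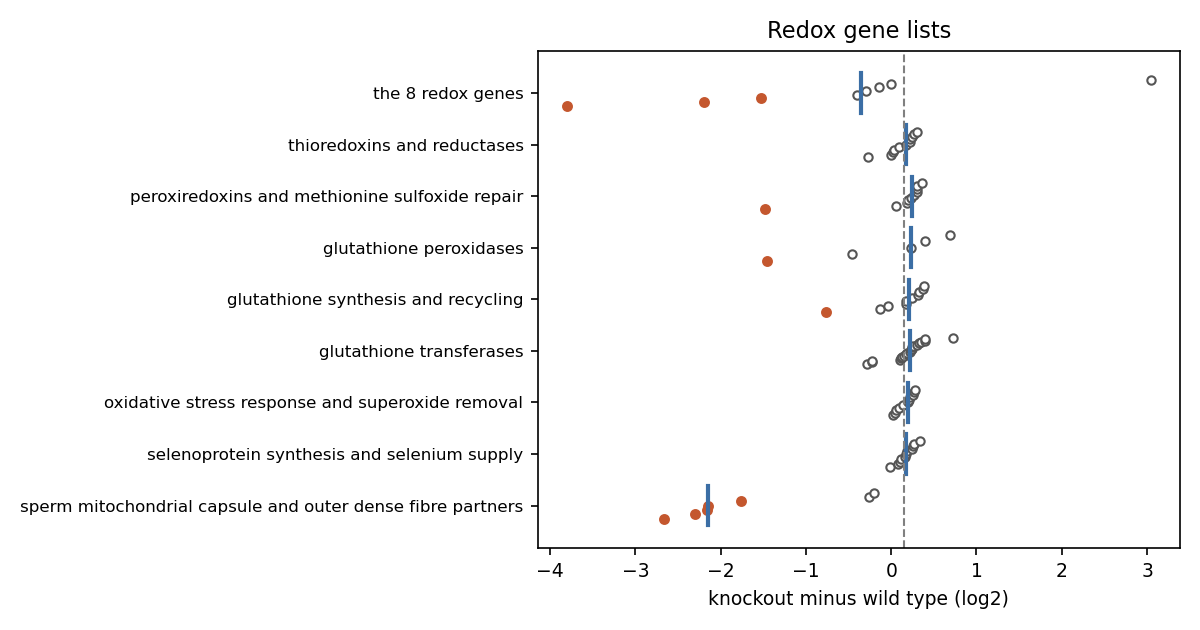
Change of every tested gene on the log2 scale (x axis, knockout minus wild type) by list; filled points passed an adjusted p under 0.05, blue bars are list medians and the dashed line is the median over all genes tested. Srxn1, Gpx6 and Glrx2 are the called genes of the 7 other redox lists, while the sperm structural list has a median of -2.15.

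Genes for sperm structures, among them those that hold the products of Txndc2 and Gpx4, were mostly lower. Of 7 genes of the mitochondrial capsule, outer dense fibres and fibrous sheath, 5 fell, none rose, and the median was -2.15. Across all genes tested, 7.15% were called lower. Smcp, Odf1 and Akap4 are also among the spermatid markers counted above, so these counts are not separate. Odf2 and Gk2 were not called, with log2 changes of -0.27 and -0.20. Smcp, the cysteine-rich protein that lies with Gpx4 in the mitochondrial capsule, went from 149 and 131 RPKM to 39.3 and 25.3 RPKM, a 4.43-fold fall (limma adjusted p = 0.0029). Akap4 and Akap3, of the fibrous sheath, fell 6.35-fold and 3.39-fold, and Odf1, of the outer dense fibres, fell 4.48-fold; Spata19 was the other gene that fell. Smcp, Akap4, Akap3 and Odf1 missed the threshold without wild type replicate 1, with limma adjusted p from 0.0535 for Akap3 to 0.0719 for Smcp.

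Of 7 spermatocyte genes, 1 fell (Pgk2) and 1 rose (Tex101). Their summed levels were 1591 and 1840 RPKM in wild type and 2000 and 1893 RPKM in the knockout. Within that sum, Tex101 went from 202 and 231 RPKM in wild type to 466 and 483 RPKM in the knockout. The median change of the 7 genes was 0.13, beside 0.14 over all genes tested, so the higher sum does not show a rise of the list. The Pgk2 call (limma adjusted p = 0.0216) was lost without a filter (0.0701), without limma's trend and robust options (0.055), without wild type replicates 1 (0.179) and 2 (0.144) and without knockout replicate 2 (0.171). None of 5 spermatogonial, 6 Sertoli, 6 Leydig, 4 peritubular and endothelial or 6 immune and red blood cell genes tested was called by limma, with 2, 3, 1, 1 and 0 higher at an unadjusted p under 0.05 (15.6% over all genes tested).

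The genes whose 4 values were most like those of a member were found by the distance between each gene's deviations from its own mean over the 4 libraries. For Txndc2, the member with the largest change, these were Wbscr28 (distance 0.16 on the log2 scale), Actrt2, an actin-related gene of the testis (0.21), and H1fnt, the spermatid linker histone (0.22). H1fnt was at 44.8 and 43.7 RPKM in wild type and 4.81 and 2.69 RPKM in the knockout, a 12.3-fold fall (limma adjusted p = 0.00357). For Gpx4 they were Ppp2r2d, a regulatory subunit of protein phosphatase (0.01), Pdk3, a pyruvate dehydrogenase kinase (0.02), and Gtsf1, a factor of the piRNA pathway (0.03). Gtsf1 was at 60.6 and 64.7 RPKM in wild type and 52.5 and 48.8 RPKM in the knockout (limma adjusted p = 0.127). The distance rests on 4 libraries in 2 groups, so genes with a like difference between the groups are near each other.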

How the data were processed

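RNA of whole testes was sequenced after a TruSeq library preparation, per the labels' protocols. Bcl2fastq 2.17.1.14, Bowtie2 and the mm9 build are named in the submitters' processing notes; for the counting tool, annotation, use of strand and filters no source used here gives a name. The authors deposited log2 RPKM values for 26127 entries. A share of 0.226% (59 entries) without a gene name was dropped. The control and null columns were taken as the wild type and knockout libraries of the same number.

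Knockout was compared with wild type by limma 3.58.1 (R 4.3.3, trend and robust options, two-sided) over the 13414 genes with a mean of at least 0 on the log2 scale, with Benjamini-Hochberg adjustment and a threshold of 0.05. No pseudocount was added, and folds are differences of mean log2 values. The code was tested on simulated data. The members, gene lists and tests were chosen with earlier results of these data known. All members, called list genes (up to 4 per redox list, otherwise the one with the smallest p), at most 2 genes per marker list and the 3 most alike genes were to be named. Levels of list genes found under older symbols were matched by gene identifier; Rhox5 was not analysed here.

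The file gives no read totals. Genes without reads carry the value of 0.9 of a read, which gave the depth of each library from genes with 1 exon. With this depth and Gencode M21 exon lengths, 47.4% of 23618 genes with a length came out whole in all 4 libraries within 0.01 of a read. This held for 6 of the 8 members; for Txndc2 and Gpx4 the nearest length that gave whole reads was used (1899 and 1675 bases). Reads are therefore estimates, and intervals on them cover counting error only. Alternatives were a stricter filter or none, equal medians of the libraries, quantile normalization, log2(RPKM + 1), limma with neither the trend nor the robust option, the replicate number as a block, and leaving out each library, where the lone library left is assumed to vary like the other group.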

Additional observations from a re-analysis of the deposited data

How the results depend on the processing

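Among the 8 redox genes, the 3 called lower became 6 after quantile normalization and 0 to 3 when a library was left out, with 0 without wild type replicate 1; 0 called higher became 0 to 1, where the 1 was Gsta2 without wild type replicate 2. The log2 change of Txnrd3 ran from -0.15 to 0.15 when a library was left out, with the upper value without wild type replicate 2 and a value of 0.01, also above 0, without knockout replicate 1. Over all genes, the 959 lower calls became 637 with the filter at a mean of 2 and 0 to 1308 when a library was left out, and the 163 higher calls became 97 without a filter and 0 to 494. Without wild type replicate 1, where limma called 0 genes, 2357 had an unadjusted p under 0.05; the calls were 288 lower and 22 higher without wild type replicate 2. The cause of these shifts was not tested.

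The replicate number pairs the samples in number only. With it as a block, 1477 genes were lower and 1837 higher. The deviations of same-numbered libraries correlated at 0.33 across 13414 genes, which is a hint from the data and not part of the design. Txndc2 missed the threshold under the replicate block (limma adjusted p = 0.0644) and Prdx4 passed it (0.00202). Low reads limited Gsta2 in wild type replicate 1 and its relatives.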
